A study of Mus musculus with 12 samples.

Results

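MC38 cells given nintedanib and X-rays together were compared with untreated MC38 cells. MC38 is a mouse colorectal cancer cell line, and all groups are cultures of it. Of the 12 libraries of the study, 6 enter this comparison: 3 from cultures given nintedanib at 3 µM with X-rays at 8 Gy (the combination), and 3 from untreated cultures (the control). The other 6 came from cultures given nintedanib at 3 µM alone and cultures given 8 Gy alone, 3 libraries each, and are used here to place the combination against either treatment. The labels give 24 hours for the treatments and no time for the control, and state that the experiment was carried out independently 3 times. Expression is given as FPKM (fragments per kilobase of gene model, scaled to the sequencing depth of the library), a scale on which the levels of different genes can be set side by side. Genes were kept when they reached an FPKM of 1 in at least 3 of the 6 libraries, which held for 12333 of the 54532 genes in the table. A gene under 1 FPKM throughout 1 group was kept only if it was higher in the other. Just inside this limit, 218 genes had their third-highest value of the 6 between 1.0 and 1.1 FPKM, and just outside it 240 genes had theirs between 0.9 and 1.0.

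Nintedanib inhibits the receptor tyrosine kinases for VEGF, FGF and PDGF. Receptors of these families signal through the RAS and ERK cascade, which drives immediate early genes, ETS factors and their feedback inhibitors, and through PI3K and mTOR, which govern ribosome production, amino acid and lipid metabolism, and lysosome number. X-rays break DNA, and dividing cells answer with cell cycle checkpoints, repair and, where p53 is functional, transcription of p53 target genes. Irradiated tumour cells are also known for interferon signalling and for higher surface MHC class I. The comparison addresses what both treatments together change in the tumour cells themselves.

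Fragments per library, recovered from the FPKM values, were 16899489 to 17836460 in the 6 libraries of the comparison and 16103528 to 18196615 over all 12. An FPKM of 1 in a gene of 1 kb stood for 16.6 to 18 fragments, so low and short genes rest on few fragments and are less precise. The sum of FPKM was 301502 to 315358 in the controls and 279015 to 302509 in the combination, and mitochondrial genes took 1.25 to 1.36% and 1.45 to 1.64% of fragments. Pearson correlations of log2(FPKM + 1) were 0.982 to 0.989 within each of both groups and 0.938 to 0.947 between them. The mesenchymal markers of the line were present: Vim, an intermediate filament protein, was at 546, 574 and 618 FPKM in the controls and at 500, 585 and 563 FPKM in the combination. Epcam, an epithelial adhesion gene, was listed at 0 in all 12 libraries, and none of 12 leukocyte marker genes reached the limit for testing (summed level 1.21 to 1.29 FPKM in the controls and 1.36 to 2.86 FPKM in the combination). In RNA from whole cultures, fewer cells of a type and less RNA per cell cannot be told apart.

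Nearly as many genes rose as fell, and the changes touched named functional groups unevenly. Differences are given as combination minus control on the log2(FPKM + 1) scale with the standard error (SE), which understates the change of low genes, and a gene was called when its Benjamini-Hochberg adjusted p from limma over the 12333 genes was under 0.05. By this rule 2860 genes (23.2%) rose and 3241 (26.3%) fell, and the median difference over all genes was -0.03. These shares are the background for each count of list members against the control. The quartiles of the size of the difference among called genes were 0.35, 0.49 and 0.73. A difference of at least 1, which is 2-fold, was reached by 339 called genes upward (2.75%) and 326 downward (2.64%); with a pseudocount of 0.1 these counts were 626 and 485, and with voom on the recovered fragments 765 and 416. The libraries of both groups did not overlap in 7210 genes (58.5%). By gene class, 5656 of 10616 protein-coding genes (53.3%), 97 of 224 lincRNAs (43.3%), 72 of 214 antisense RNAs (33.6%), 22 of 102 snoRNAs (21.6%) and 98 of 621 processed pseudogenes (15.8%) were called. With FPKM rescaled to a common sum 55.2% of called genes were higher, against 46.9% here, since that scaling moves the median over all genes to 0.02.

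The genes with the largest rises belonged to different functions. Ifi27l2a, an interferon-induced gene of the mitochondrial membrane (chromosome 12, 103442167 to 103443680), was at 5.85, 6.49 and 4.25 FPKM in the controls and at 35.8, 50.8 and 43 FPKM in the combination. All 3 combination values lay above all 3 controls (log2 difference 2.76 ± 0.17, adjusted p = 4.2e-07). Id2, which binds basic helix-loop-helix factors and keeps them from DNA (chromosome 12, 25093799 to 25097140), went from 3.85, 3.58 and 3.87 FPKM to 25.1, 23.2 and 40.3 FPKM (2.64 ± 0.20). Tubb2b, a beta tubulin isotype (chromosome 13, 34126748 to 34130466), went from 2.81, 2.02 and 2.45 FPKM to 17.9, 18.6 and 22 FPKM (2.58 ± 0.11). In neither gene did the groups overlap, although the third combination library of Id2 stood well above the others. The surface antigen Psca rose by 2.40 ± 0.15, and Acat2 and Mvd, which act in or feed the mevalonate pathway, by 2.29 ± 0.20 and 2.27 ± 0.23. The serpin Serpinb8 (2.17), Trp53inp2, which takes part in autophagy (2.10), the immune receptor gene Havcr2 (2.10), the adhesion molecule Mcam (2.09), the sorbitol dehydrogenase Sord (2.07) and the Id2 relative Id3 (2.06) completed the 12. Havcr2 met the limit for testing only with its combination libraries, and the same may hold for Mcam.

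Car6, a secreted carbonic anhydrase (chromosome 4, 150187015 to 150201332), had the largest fall of all genes tested. It was at 24.4, 31.2 and 21.6 FPKM in the controls and at 1.44, 2.5 and 1.49 FPKM in the combination (log2 difference -3.25 ± 0.18, adjusted p = 2.6e-07). Cdsn, a corneodesmosome adhesion protein (chromosome 17, 35552128 to 35557180), fell from 53.7 ± 6.48 to 5.49 ± 0.83 FPKM (SD, n = 3; -3.08), and the secreted angiopoietin-like protein Angptl6 by 2.86 on the log2 scale. The growth regulator Myc (chromosome 15, 61985391 to 61990374) fell from 170, 176 and 182 FPKM to 26.7, 32.4 and 30.2 FPKM (-2.53 ± 0.09, adjusted p = 5.1e-08). In all of these the groups were far apart. Trib3, Etv5, Acot2, Sh2d6, Egr1, Fosl1, Gadd45a and Prkg2 were the other genes with the largest falls, at log2 differences of -2.69, -2.65, -2.60, -2.48, -2.48, -2.44, -2.23 and -2.22.

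**Figure D1:**
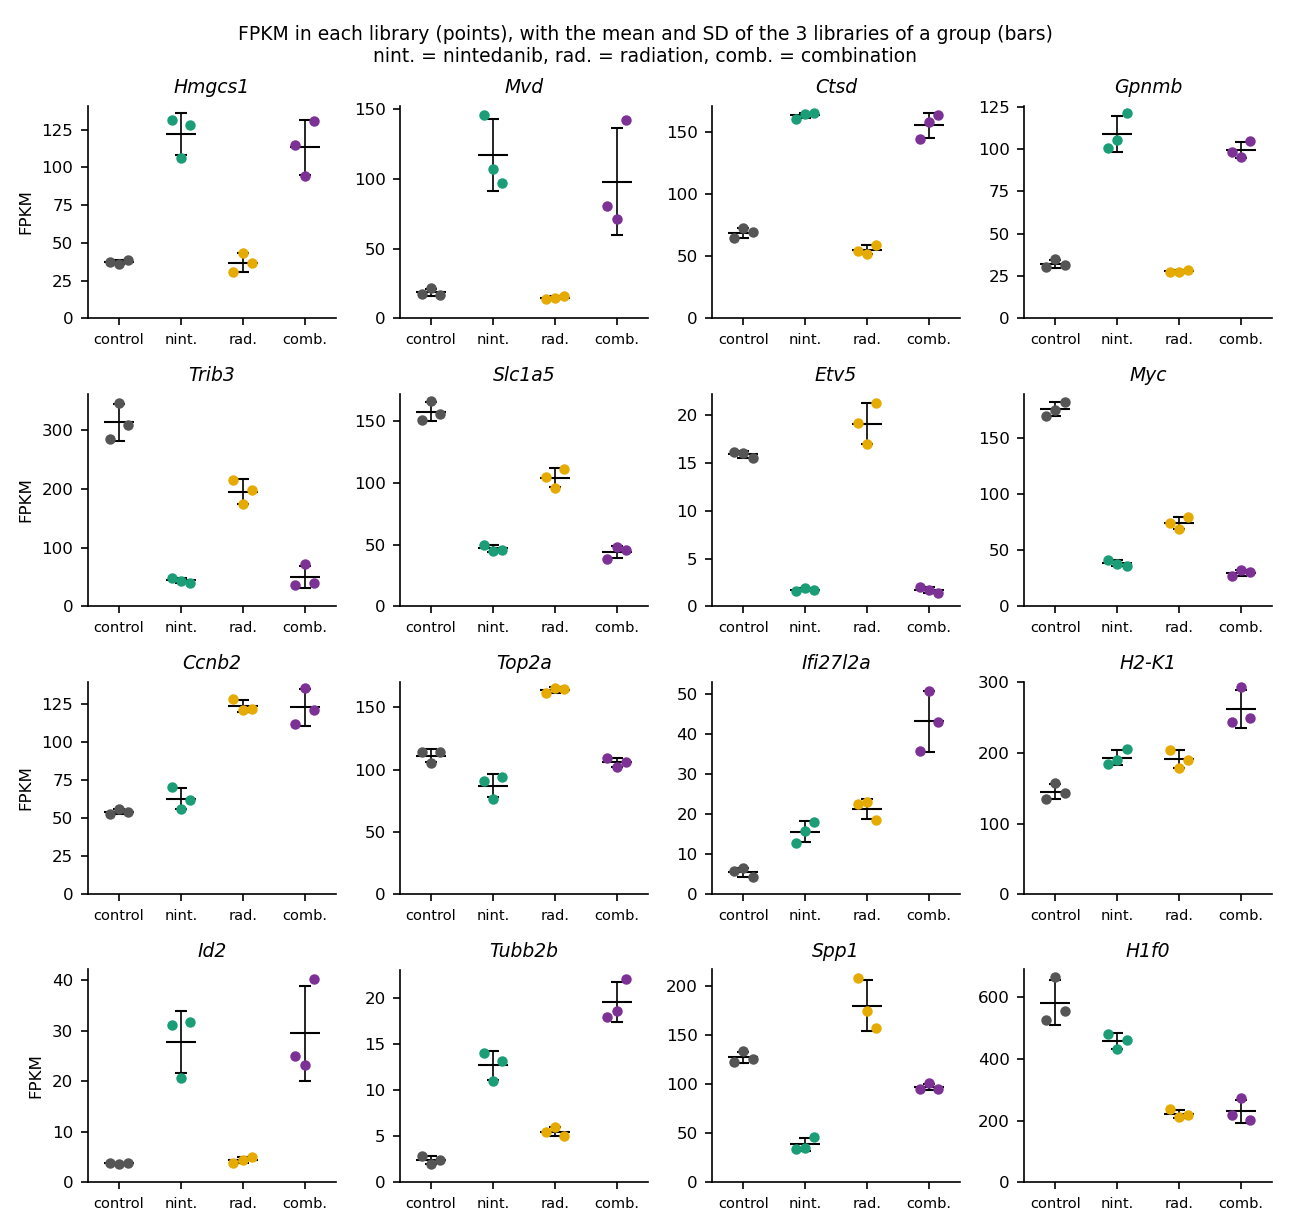
Each panel is 1 gene, each point the FPKM of 1 library, and the bars are the mean and SD of the 3 libraries of a group: control, nintedanib, radiation and combination. Hmgcs1, Ctsd, Trib3 and Etv5 have combination values near those with nintedanib, Ccnb2 and H1f0 have values near those with radiation, and Ifi27l2a, H2-K1 and Tubb2b have combination values above all other groups.

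Promoters of 6 called genes, 1 from each of 6 gene groups described in turn, are shown because each holds a short motif known as a binding site of factors that act on genes of its group. Windows are from RefSeq on GRCm38.p6. Motifs were searched on both strands from 250 bases before to 50 after each RefSeq gene start, and the printed windows run from 250 bases before to 30 after it, 5′ to 3′ on the strand of the gene, with the motif in capitals. The capitals mark TTTGAA, the cell cycle homology region of late cell cycle genes, in Ccnb2, CACCCCAC, a sterol regulatory element core, in Hmgcs1, TGATGNAA, the element bound by ATF4 and C/EBP factors, in Iars (on the opposite strand), TCACGTG, the core of the lysosomal CLEAR element, in Ctsd, the E-box CACGTG in Wdr43, and GAAANNGAA, the interferon-stimulated response element, in Oas1a. The CLEAR core contains the E-box letters, so every match of TCACGTG is also a match of CACGTG.
Ccnb2 (chr9:70421525-70421804, minus strand): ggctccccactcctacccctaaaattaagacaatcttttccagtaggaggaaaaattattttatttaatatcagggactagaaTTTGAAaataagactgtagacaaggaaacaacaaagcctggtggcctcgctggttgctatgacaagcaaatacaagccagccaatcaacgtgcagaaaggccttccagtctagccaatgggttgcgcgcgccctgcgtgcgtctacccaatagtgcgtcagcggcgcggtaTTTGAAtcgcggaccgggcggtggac
Hmgcs1 (chr13:119690101-119690380, plus strand): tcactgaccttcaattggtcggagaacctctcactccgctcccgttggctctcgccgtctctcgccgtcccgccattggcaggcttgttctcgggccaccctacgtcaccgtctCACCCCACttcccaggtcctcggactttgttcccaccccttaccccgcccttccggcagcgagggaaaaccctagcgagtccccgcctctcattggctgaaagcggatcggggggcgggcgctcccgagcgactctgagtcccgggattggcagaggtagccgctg
Iars (chr13:49681880-49682159, plus strand): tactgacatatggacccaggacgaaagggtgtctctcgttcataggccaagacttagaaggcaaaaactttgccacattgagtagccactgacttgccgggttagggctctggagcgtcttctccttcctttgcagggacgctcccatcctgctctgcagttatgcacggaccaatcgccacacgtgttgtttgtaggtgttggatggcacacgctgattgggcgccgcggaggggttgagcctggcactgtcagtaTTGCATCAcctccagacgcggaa
Ctsd (chr7:142387798-142388077, minus strand): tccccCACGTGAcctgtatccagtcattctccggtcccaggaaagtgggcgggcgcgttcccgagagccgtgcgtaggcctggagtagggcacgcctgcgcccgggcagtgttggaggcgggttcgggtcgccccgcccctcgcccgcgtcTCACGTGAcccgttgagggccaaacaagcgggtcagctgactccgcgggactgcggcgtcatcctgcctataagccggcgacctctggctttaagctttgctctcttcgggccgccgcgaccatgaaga
Wdr43 (chr17:71615965-71616244, plus strand): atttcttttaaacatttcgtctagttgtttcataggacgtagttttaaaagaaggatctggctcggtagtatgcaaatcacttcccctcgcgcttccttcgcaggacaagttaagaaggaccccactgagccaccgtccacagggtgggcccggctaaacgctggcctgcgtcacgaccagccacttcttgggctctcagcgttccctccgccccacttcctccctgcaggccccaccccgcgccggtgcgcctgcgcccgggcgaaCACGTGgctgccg
Oas1a (chr5:120907496-120907775, minus strand): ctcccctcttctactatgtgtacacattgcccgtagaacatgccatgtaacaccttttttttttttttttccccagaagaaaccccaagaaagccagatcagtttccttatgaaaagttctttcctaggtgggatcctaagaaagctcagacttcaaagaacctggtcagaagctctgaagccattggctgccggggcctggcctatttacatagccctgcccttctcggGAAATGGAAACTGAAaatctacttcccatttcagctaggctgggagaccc
The share of list promoters with each motif is set against the share over all 32851 windows and over the 11135 windows of genes tested. TTTGAA was in 42 of 60 windows of the G2/M list (70%), 17.9% of all windows and 11.9% of those of genes tested, and TGATGNAA was in 18 of 56 windows of the ATF4 lists together (32.1%), 3.97% of all and 2.09% of tested. TCACGTG was in 20 of 102 windows of the lysosome, proton pump and autophagy lists (19.6%), 3.77% of all and 6.17% of tested, and GAAANNGAA was in 23 of 44 windows of interferon-stimulated genes (52.3%), in 5 of 22 windows of the MHC class I list (22.7%) and in 28 of 66 windows of both lists (42.4%), against 8.56% of all and 6.87% of tested. CACGTG was in 10 of 38 windows of nucleolar genes (26.3%) against 7.15% and 10.3%. The strict sterol core CACCCCAC was in 2 of 19 windows of sterol synthesis genes (10.5%), those of Hmgcs1 and Acat2, against 2.87% and 2.98%, while CCAAT was in 15 of 19 (78.9%) against 37.4% and 38.3%. In the sterol uptake list CACCCCAC was in 0 of 19 windows, and CCGGAAGT, bound by ETS factors, was in 0 of 16 windows of the ERK feedback list against 3.89% and 8.73%. A match describes these letters only. Promoters were found for 56 of 67 G2/M genes, 49 of 64 genes of the ATF4 lists, 88 of 109 of the lysosome lists, 36 of 50 interferon-stimulated genes, 35 of 40 nucleolar genes and 16 of 21 sterol synthesis genes.

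Sterol synthesis genes rose almost as a block. Of the 21 enzymes from acetyl-CoA to cholesterol, all tested, 20 rose and 0 fell, with a median log2 difference of 1.33. Hmgcs1, which makes HMG-CoA (chromosome 13, 119690379 to 119708260, its promoter printed with the sterol core), was at 37.2, 36.1 and 39 FPKM in the controls and at 115, 94.3 and 131 FPKM in the combination (1.56 ± 0.14, adjusted p = 5.3e-06). Mvd, the mevalonate diphosphate decarboxylase (chromosome 8, 122433601 to 122443422), was at 17.4, 21.7 and 17 FPKM and then at 80.8, 71.6 and 142 FPKM. The groups lay apart in both genes, and the third combination library was the highest of the 3 for all 21 members. The squalene synthase Fdft1 rose by 1.32, the squalene epoxidase Sqle by 1.08, and the late enzyme Nsdhl by 1.81.

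The genes around this pathway moved less uniformly. In the list for sterol uptake and SREBP control, 7 of 14 tested members rose and 3 fell (median 0.31). Insig1, which holds SREBP in the endoplasmic reticulum and is itself an SREBP target, rose from 57.5, 52.7 and 58.4 FPKM to 168, 142 and 174 FPKM (1.50 ± 0.10). The transfer protein Stard4 rose by 0.98 and the factor Srebf2 by 0.39. In turn the lipoprotein receptor Vldlr fell by 1.16 on the log2 scale, the SREBP escort Scap by 0.44 and the SREBP protease Mbtps2 by 0.78. Of 15 fatty acid genes tested 11 rose and 1 fell (median 0.56): Fasn, the fatty acid synthase, by 0.99 ± 0.15, the citrate lyase Acly by 0.86, the acetyl-CoA synthetase Acss2 by 1.10 and the desaturases Fads2 and Scd2 by 0.91 and 0.77. The member that fell was Mid1ip1, which activates acetyl-CoA carboxylase (-0.75). Of 16 lipid droplet genes 5 rose and 2 fell: the coat protein Plin4 rose by 1.68 and the phosphatidate phosphatase Lpin1 by 1.27, while Hilpda, an inhibitor of lipolysis, fell by 1.05. Of 7 tested sterol efflux and LXR target genes, 2 rose (Lpcat3 and Scarb1) and 1 fell (Apoe, -0.80), and the cholesterol exporter Abca1 had 0.31 ± 0.21 (adjusted p = 0.24) and was called higher without the third combination library, when 4 members rose; without the second, 2 fell.

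Lysosome genes rose across enzymes and pump. Of 36 tested lysosomal hydrolases 34 rose and 0 fell (median 0.60), and of 16 subunits of the vacuolar proton pump, which acidifies the lysosome, 16 rose (median 0.62). Ctsd, an aspartic protease (chromosome 7, 142375911 to 142388038, promoter printed with the CLEAR core, whose second stretch in capitals reads the same on both strands), was at 64.6, 72.5 and 69.8 FPKM in the controls and at 144, 158 and 164 FPKM in the combination (1.16 ± 0.07, adjusted p = 6.2e-07). The groups did not overlap in 34 of the 36 hydrolases or in any of the 16 pump subunits, for which the share over all genes is the 58.5% given above. The sialidase Neu1 rose by 1.43 ± 0.07, the protease Ctsb by 0.90 and the mannosidase Manba by 1.02. Among pump subunits Atp6v0d1 rose by 1.05 ± 0.08, and Atp6ap2, an accessory subunit, rose by 1.04.

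Of 18 tested lysosomal membrane proteins and their regulators, 13 rose and 2 fell (median 0.40). Gpnmb, a glycoprotein of the lysosome and cell surface (chromosome 6, 49036546 to 49070929), went from 30.2, 34.8 and 31.7 FPKM to 98.2, 95.2 and 105 FPKM (1.59 ± 0.08). Cd68, a lysosomal glycoprotein best known from macrophages, went from 4.6, 3.86 and 3.55 FPKM to 17.3, 16.2 and 19.5 FPKM (1.90 ± 0.10). The leukocyte marker Ptprc reached at most 0.0154 FPKM in these groups. All 12 leukocyte markers summed to 1.21 to 1.29 FPKM in the controls and 1.36 to 2.86 FPKM in the combination, and a part of leukocytes in Cd68 was not tested. The calcium channel Mcoln1 (0.62) and the membrane protein Lamp2 (0.81) rose, and Tfe3, a transcription factor of lysosomal genes, fell by 0.51. Scarb2 was the other member that fell (-0.19 ± 0.07, adjusted p = 0.034), a call lost in 8 of 16 other settings. Of 34 autophagy genes 16 rose and 5 fell (median 0.19). Bnip3, a mitophagy receptor, rose by 2.0 ± 0.18, the receptor Optn by 1.36 and the ATG8 proteins Map1lc3b and Gabarap by 0.93 and 0.92. The receptor Sqstm1 fell from 438, 532 and 446 FPKM to 294, 378 and 305 FPKM (-0.54 ± 0.11). The falls of Atg12, Atg16l1 and Atg3 were lost in 7, 9 and 9 of 16 other settings, so that only 2 members fell without the second or the third control library or the second combination library, and 3 without the third combination library.

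Genes of the integrated stress response, which ATF4 runs to supply amino acids and charge tRNAs, fell. Of 17 tested regulators and stress factors 16 fell and 0 rose (median -1.15), and the same held for 14 of 14 amino acid synthesis and one-carbon genes (median -1.22), 9 of 9 amino acid transporters (median -1.41) and 19 of 20 cytosolic aminoacyl-tRNA synthetases (median -0.88). Trib3, a pseudokinase induced by ATF4 (chromosome 2, 152337422 to 152344032), was at 284, 346 and 308 FPKM in the controls and at 36.9, 71.8 and 40.4 FPKM in the combination (-2.69 ± 0.20, adjusted p = 2e-06). Atf4 itself went from 394, 424 and 409 FPKM to 151, 208 and 196 FPKM (-1.15 ± 0.12). The groups were apart in both, and in all 17 regulators the second combination library was the highest of the 3. The phosphatase subunit Ppp1r15a fell by 2.06, the hormone Stc2 by 1.95, the mTOR inhibitor Sesn2 by 1.54, the factors Ddit3 and Atf3 by 1.82 and 1.68, and the glutathione-degrading enzyme Chac1 by 1.08; Ddit3 stands under 2 identifiers in the table and its reads may be split between them. Ddit4, an mTOR inhibitor, had -0.47 ± 0.18 (adjusted p = 0.0497), a call lost in 12 of 16 other settings.

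Slc1a5, the glutamine and neutral amino acid transporter (chromosome 7, 16781340 to 16798274), led the transporters by its adjusted p. It was at 151, 166 and 156 FPKM in the controls and at 38.6, 47.8 and 46 FPKM in the combination (-1.82 ± 0.09, adjusted p = 1.5e-07). The glycine transporter Slc6a9 fell by 1.90, the cystine transporter Slc7a11 by 1.79 and the arginine transporter Slc7a1 by 1.41. In the synthesis list the mitochondrial folate enzymes Mthfd2, Aldh1l2 and Mthfd1l fell by 1.61, 1.55 and 1.45, the cystathionine lyase Cth by 1.58, the asparagine synthetase Asns by 1.22 and the serine enzyme Phgdh by 0.72. Iars, the isoleucyl-tRNA synthetase (chromosome 13, 49682100 to 49734267, promoter printed with the ATF4 element), fell from 86.5, 85.7 and 88.4 FPKM to 33, 37.5 and 34.1 FPKM (-1.29 ± 0.06). Wars, Lars and Eprs fell by 1.50, 1.48 and 1.24. The glutaminyl-tRNA synthetase Qars was the exception and rose by 0.41 ± 0.06, from 14.4, 15.6 and 15.7 FPKM to 19.5, 21.2 and 20.9 FPKM.

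Outputs of the ERK cascade fell. Of 14 tested ERK feedback genes and ETS factors 11 fell and 2 rose (median -0.82), and of 15 immediate early and AP-1 genes 11 fell and 2 rose (median -0.59). Etv5, an ETS factor transcribed downstream of ERK (chromosome 16, 22381309 to 22439719), was at 16.1, 16.1 and 15.5 FPKM in the controls and at 1.98, 1.69 and 1.42 FPKM in the combination (-2.65 ± 0.09, adjusted p = 5.1e-08). Its relative Etv4 fell by 2.02, the ERK phosphatase Dusp6 by 2.02 and the feedback inhibitors Spry4 and Spry2 by 1.74 and 1.10. Members that rose were the phosphatase Dusp4 (0.40 ± 0.13, adjusted p = 0.021, a call lost in 3 of 16 other settings) and Il1rl1, the receptor for interleukin 33 (0.58). Il1rl1 is a low gene that may have met the limit for testing only with its combination libraries. Egr1, a zinc finger immediate early factor, went from 9.24, 8 and 9.13 FPKM to 0.744, 0.787 and 0.744 FPKM (-2.48 ± 0.10), and Fosl1, an AP-1 subunit, from 85.9, 93.4 and 90.2 FPKM to 12.9, 15.1 and 20 FPKM (-2.44 ± 0.21). Egr1 met the limit for testing only with its control libraries, so its fall is not independent of that limit. The AP-1 members Jund and Fosl2 rose by 0.81 and 0.49.

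Ribosome production genes fell with Myc. All 40 nucleolar and ribosome biogenesis genes fell (median -1.06), and the groups did not overlap in 40 of 40, against 58.5% over all genes. Wdr43, a component of the small subunit processome (chromosome 17, 71616215 to 71659031, promoter printed with the E-box), was at 84.7, 89.4 and 86.3 FPKM in the controls and at 31.3, 31.7 and 33.7 FPKM in the combination (-1.40 ± 0.07, adjusted p = 1.2e-07). The box C/D protein Nop56 fell by 1.75, the pseudouridine synthase Dkc1 by 1.73, the RNA polymerase I subunit Polr1b by 1.69 and nucleolin, Ncl, by 1.35. Of 78 cytosolic ribosomal protein genes 16 fell and 1 rose (median -0.21), so the share that fell was not above the 26.3% over all genes. Among those that fell, Rpl3 went from 316, 378 and 330 FPKM to 209, 237 and 242 FPKM (-0.57 ± 0.10). Of 21 nucleotide synthesis genes 15 fell and 1 rose (median -0.50), among them the deaminase Dctd (-1.56), the purine enzyme Adss (-1.09), the CTP synthase Ctps (-1.04) and the first pyrimidine enzyme Cad (-1.0). The second CTP synthase gene Ctps2 rose by 0.57, from 8.14, 7.75 and 7.21 FPKM to 12.6, 11.7 and 11.4 FPKM.

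**Figure D2:**
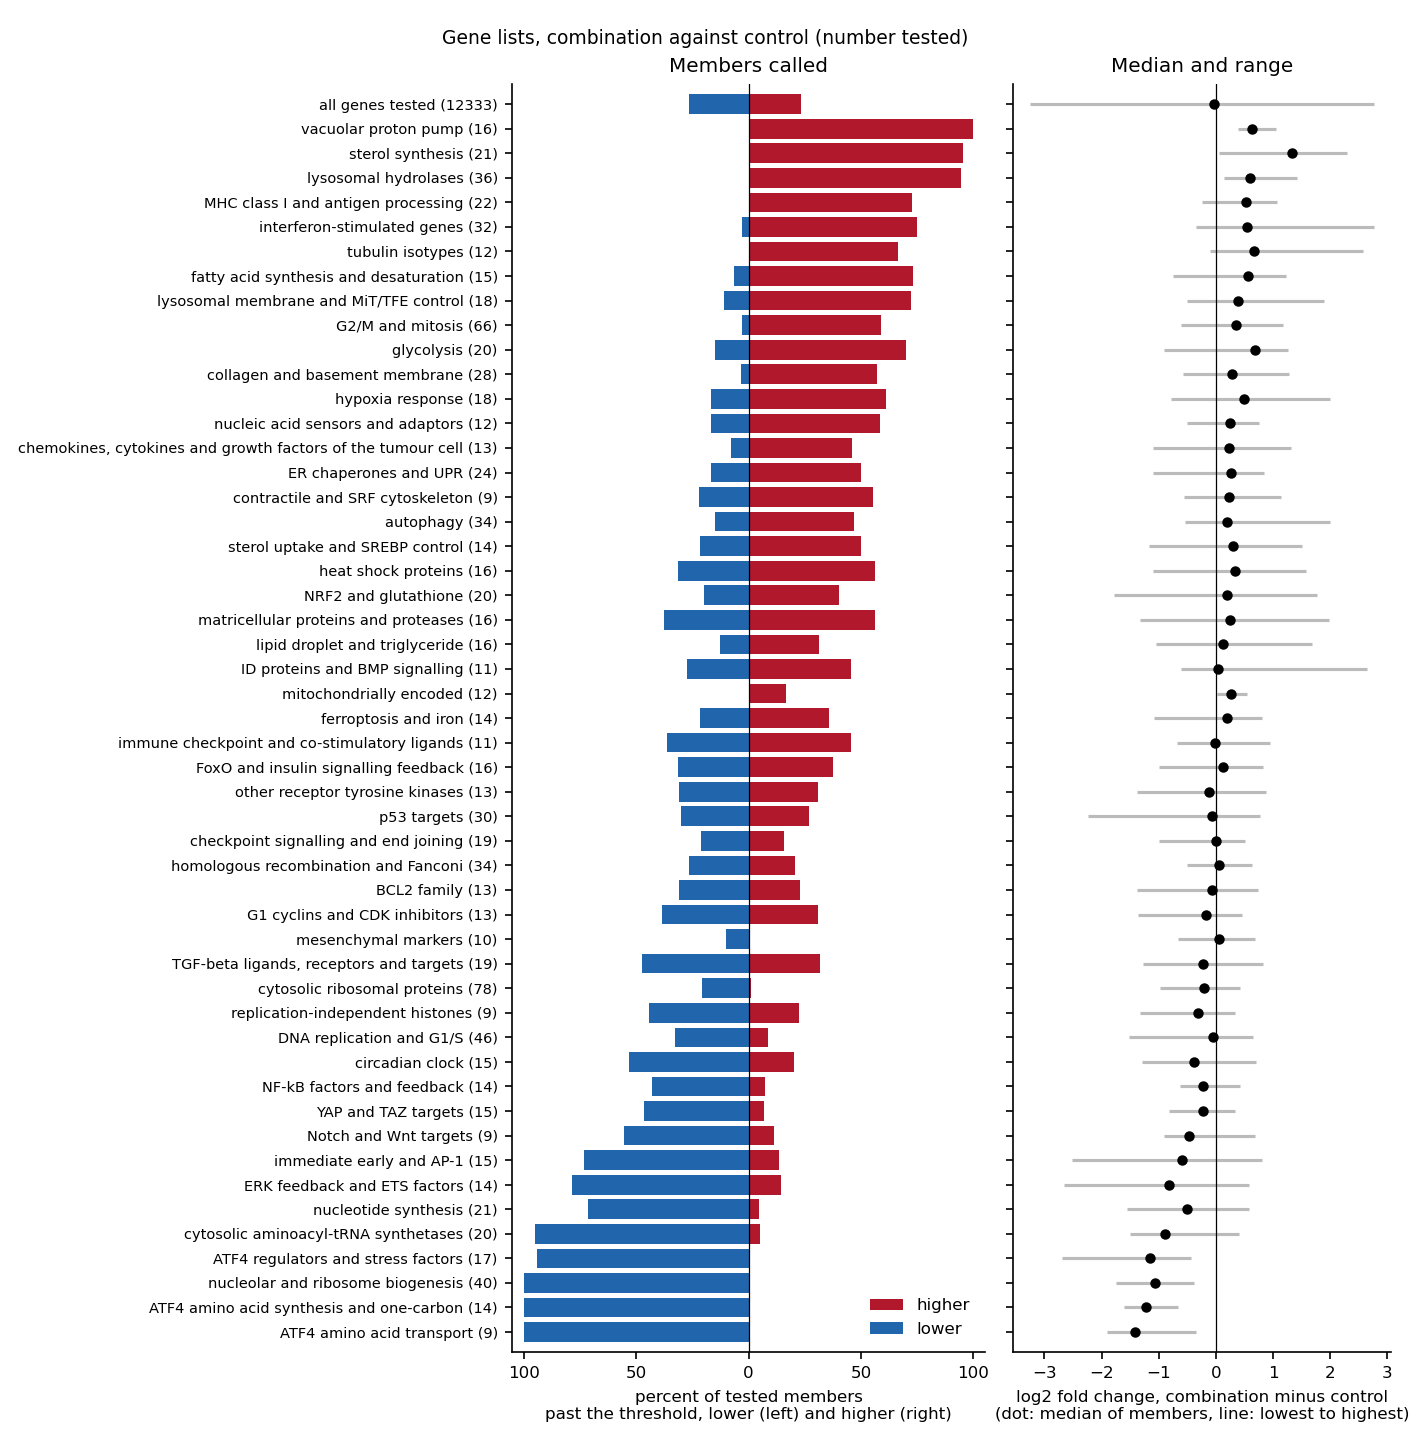
The left panel gives, for each list with at least 9 tested members, the percent of tested members that fell (blue, to the left) or rose (red, to the right) in the combination, and the right panel the median log2 difference (dot) with the lowest and highest member (line). The row for all 12333 genes shows the background of 23.2% higher and 26.3% lower, and the extremes include the proton pump with 16 of 16 higher and the nucleolar list with 40 of 40 lower.

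Most mitotic genes rose, and most genes of DNA replication were not called. In the list of G2/M and mitosis genes, 39 of 66 tested rose and 2 fell (median 0.35). Ccnb2, a mitotic cyclin (chromosome 9, 70407692 to 70421547, its promoter printed first), was at 52.9, 56.2 and 53.9 FPKM in the controls and at 112, 136 and 121 FPKM in the combination (1.16 ± 0.09, adjusted p = 2.3e-06). The spindle protein Knstrn went from 17.9, 18.3 and 18.4 FPKM to 43.2, 42.1 and 42.2 FPKM (1.18 ± 0.06), and both groups were tight and apart. The cyclin Ccnb1 rose by 0.99, the spindle proteins Nusap1 and Kif20a by 0.95 and 0.93, the mitotic kinase Aurka by 0.86, the phosphatase Cdc25b by 0.81 and the kinase Cdk1 by 0.51. Plk1, a mitotic kinase, had 0.40 ± 0.15 (adjusted p = 0.04), a call lost in 7 of 16 other settings. Top2a, the topoisomerase of condensing chromosomes, was at 114, 105 and 114 FPKM and then at 110, 102 and 106 FPKM (-0.07 ± 0.08, adjusted p = 0.5). The members that fell were the kinase Pbk (-0.61 ± 0.09) and the factor Mybl2 (-0.47 ± 0.15, lost in 4 of 16 other settings).

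Of 46 DNA replication and G1/S genes 4 rose (7 with voom) and 15 fell (median -0.04), and the latter count was 9 both with FPKM rescaled to a common sum and without the second combination library. The MYC target Cdca7 fell from 36.2, 38.4 and 35.6 FPKM to 10.1, 12.3 and 14.1 FPKM (-1.53 ± 0.14), the uracil glycosylase Ung by 1.30, the cyclin Ccne1 by 1.01 and the thymidine kinase Tk1 by 0.88. The origin protein Orc1 rose by 0.66 and the factor E2f1 by 0.54. Among 13 tested G1 cyclins and CDK inhibitors 4 rose and 5 fell, 3 without the first or the third control or the second combination library. The shares over all genes were 23.2% and 26.3%. The D cyclins Ccnd1 and Ccnd2 fell by 1.36 and 1.33 and the kinase Cdk6 by 0.75, while the inhibitors Cdkn1b, Cdkn2c and Cdkn2d rose by 0.38, 0.38 and 0.46 (Cdkn2c lost in 3 of 16 other settings). Of 34 homologous recombination and Fanconi genes 7 rose (3 with an FPKM minimum of 5) and 9 fell (median 0.05), close to the shares of 23.2% and 26.3% over all genes. The Fanconi core member Fancg rose by 0.64, Eme1, a nuclease subunit, by 0.56 and Brca1 by 0.43, and the double-strand break proteins Mre11a, Nbn and Rbbp8 fell by 0.49, 0.51 and 0.51. Of 19 checkpoint signalling and end joining genes 3 rose and 4 fell, both under these shares over all genes. The end joining gene Xrcc6 went from 21.9, 21.5 and 21.7 FPKM to 9.42, 11.4 and 10.6 FPKM (-0.99 ± 0.11), and the checkpoint kinase Wee1 rose by 0.51.

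The p53 targets did not move together. Of 30 tested members 8 rose (4 with an FPKM minimum of 5) and 9 fell (median -0.06), against 23.2% and 26.3% over all genes. Cdkn1a, the cell cycle inhibitor p21, was at 28.9, 33.6 and 29 FPKM in the controls and at 23.5, 30.1 and 30.6 FPKM in the combination (-0.12 ± 0.12, adjusted p = 0.44). The p53 antagonist Mdm2 had -0.12 ± 0.07 (adjusted p = 0.15), and the groups overlapped in Cdkn1a. Trp53 fell from 133, 140 and 138 FPKM to 68.3, 75.9 and 82 FPKM (-0.86 ± 0.07). The growth arrest gene Gadd45a fell by 2.23, the apoptosis gene Bbc3 by 1.38 and the kinases Plk3 and Plk2 by 1.32 and 0.92, whereas the death receptor Tnfrsf10b rose by 0.67 and Trp53inp1 by 0.78. In the BCL2 family 3 of 13 rose (1 with an FPKM minimum of 5 and 5 with voom) and 4 fell, again close to the shares over all genes. The BH3-only genes Bmf (0.74) and Bcl2l11 (0.32) and the effector Bak1 (0.52) rose, the protective Bcl2 fell by 0.54, and the calls of Bcl2l1 and Bcl2l2, which also fell, were lost in 2 and 7 of 16 other settings (2 members fell without the second control or the first combination library). The differences of Bmf and Trp53inp1 reached 1.73 and 1.94 in other settings. Both are low genes that may have met the limit for testing only with their combination libraries. Among 9 tested replication-independent histones 4 fell and 2 rose, the latter count being 0 without the first or the third control or the second combination library and 1 without the second control or the third combination library. The linker histone H1f0 (chromosome 15, 79028450 to 79030504) fell from 524, 665 and 555 FPKM to 217, 273 and 202 FPKM (-1.33 ± 0.12) and H3f3b by 1.17.

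Most interferon-stimulated and MHC class I genes rose. Of 32 interferon-stimulated genes tested, out of 50 in the list, 24 rose and 1 fell (median 0.54); among those with an FPKM of at least 5 in 3 of the 6 libraries, where fewer genes are tested, 10 rose. Besides Ifi27l2a, Ifit3 went from 0.587, 1.19 and 0.597 FPKM to 3.95, 4.43 and 3.43 FPKM (1.48 ± 0.19), and Oas1a, a sensor of double-stranded RNA whose promoter is printed, from 1.85, 1.72 and 1.87 FPKM to 4.69, 4.67 and 4.62 FPKM (1.01 ± 0.07). In both the groups were apart at levels of a few FPKM. Ifit3 met the limit for testing only with its combination libraries, so its rise is not independent of that limit. The same may hold for other low members among the 24. The interferon signal transducer Stat2 rose by 1.04, Ifit2 by 0.90, the RNA sensor Ddx58 by 0.58 and the factors Irf1 and Irf7 by 0.57 and 0.41 (the latter lost in 3 of 15 other settings). The ubiquitin ligase Trim25 was the member that fell (-0.34).

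Of 22 tested genes of MHC class I and antigen processing 16 rose and 0 fell (median 0.53). H2-K1, a classical heavy chain (chromosome 17, 33996017 to 34000333), was at 135, 157 and 143 FPKM in the controls and at 243, 292 and 249 FPKM in the combination (0.84 ± 0.09, adjusted p = 2.5e-05). B2m, the light chain, went from 622, 649 and 666 FPKM to 1271, 1308 and 1234 FPKM (0.98 ± 0.14), with all treated values above all controls. The immunoproteasome subunit Psmb8 rose by 1.06, the heavy chains H2-T22, H2-Q4 and H2-D1 by 1.03, 0.65 and 0.52, the chaperone Tapbp by 0.86 and the transporter Tap1 by 0.38; reads of such similar heavy chains may be shared in the authors' counting. Of 12 nucleic acid sensors and adaptors 7 rose and 2 fell: the adaptor Tmem173 (STING) by 0.75 and the kinase Tbk1 by 0.50, while the DNA sensor Mb21d1 (cGAS) fell by 0.50 and the RNA editor Adar by 0.29. The nuclease Trex1 was listed at 0 in all libraries.

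Secreted and surface immune genes were mixed. Of 13 chemokine and cytokine genes tested 6 rose and 1 fell. Ccl9, a myeloid chemokine, went from 3.84, 4.35 and 4.39 FPKM to 12.2, 16.2 and 8.41 FPKM (1.31 ± 0.18), and Csf1, the macrophage growth factor, fell from 78.7, 86.2 and 79.8 FPKM to 36.5, 37.5 and 38 FPKM (-1.11 ± 0.07). For Ccl9 all combination values lay above the controls, with a wide spread. Il18 rose by 0.76, Il34 by 0.33 and Ccl2 by 0.41. Of 14 NF-kB factors and feedback genes 1 rose (the inhibitor Nfkbia, 0.41) and 6 fell, among them Rela (-0.63), Relb (-0.55) and Nfkb1 (-0.34). Of 11 checkpoint and co-stimulatory ligands 5 rose and 4 fell: Cd274 (PD-L1) went from 1.55, 1.75 and 1.76 FPKM to 1.14, 0.959 and 0.858 FPKM (-0.44 ± 0.11), the anti-phagocytic Cd47 fell by 0.59 and Icosl by 0.68, and Tnfsf9, Lgals9, Ulbp1 and Cd276 rose by 0.95, 0.73, 0.51 and 0.38. Havcr2 (TIM-3; chromosome 11, 46454935 to 46481255), best known from lymphocytes and myeloid cells, was at 1.04, 0.786 and 0.915 FPKM in the controls and at 7.58, 6.47 and 7.5 FPKM in the combination. It met the limit for testing only with its combination libraries. No leukocyte marker of the list was high enough to be tested.

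Receptors inhibited by nintedanib were few. Of 16 genes in the list 5 were tested, and 3 rose and 1 fell. Fgfr1 went from 24.9, 23.1 and 24.2 FPKM to 35.2, 37.9 and 34.9 FPKM (0.56 ± 0.07), Pdgfra rose by 0.73 and Pdgfrb by 0.33, and the kinase Src fell by 0.47. Kdr, the main VEGF receptor, was at most 0.00621 FPKM in these libraries. Among 13 other receptor tyrosine kinases 4 rose, 2 of them without the first or the third control or the first or the second combination library, and 4 fell. Over all genes 23.2% rose and 26.3% fell. Met rose by 0.87 and Epha2 fell from 110, 113 and 113 FPKM to 39.6, 41.8 and 45.4 FPKM (-1.39 ± 0.10). Of 7 tested ligands and co-receptors 2 rose, 1 without the second or the third combination library, and 3 fell. Vegfa fell from 55.4, 62.5 and 57.3 FPKM to 31.5, 36.2 and 32.8 FPKM (-0.78 ± 0.08), the neuropilin Nrp2 fell by 0.64 and Vegfd rose by 0.73.

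The ID proteins, which BMP signalling induces, rose together: Id1 by 1.47 ± 0.23, Id2 by 2.64 and Id3 by 2.06, and for all 3 the third combination library was the highest (205 FPKM of Id1 against 114 and 123 FPKM). In the list of ID proteins and BMP signalling genes 5 of 11 tested rose and 3 fell, the latter 1 without the first control or the second combination library. The inhibitory Smad6 rose by 0.90 and the receptor Acvr1 fell by 0.60. Of 19 genes for TGF-beta ligands, receptors and targets 6 rose and 9 fell: the latent binding protein Ltbp1 fell from 14.3, 13.8 and 14.3 FPKM to 5.42, 5.17 and 5.31 FPKM (-1.27 ± 0.06) and Smad3 by 0.71, whereas the receptors Tgfbr1 and Tgfbr2 and the matrix protein Tgfbi rose by 0.42, 0.51 and 0.83. Of 28 collagen and basement membrane genes 16 rose and 1 fell (median 0.28), led by the cross-linking oxidases Loxl1 (1.29) and Loxl2 (1.06) and the prolyl hydroxylases P4ha2 (1.14) and P4ha1 (0.91). Among matricellular proteins and proteases 9 of 16 rose and 6 fell: the plasminogen activators Plau and Plat rose by 1.89 and 1.53, Wisp2 by 1.99 and the metalloprotease Mmp14 by 0.94, and the protease inhibitor Timp3, Igfbp4 and the receptor Plaur fell by 1.29, 1.33 and 0.98. Of 15 YAP and TAZ targets 1 rose and 7 fell, with Ankrd1 at -0.78 ± 0.08.

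Most tubulin genes rose. Of 12 tested isotypes 8 rose and 0 fell (median 0.67). Tuba1a went from 202, 211 and 202 FPKM to 491, 485 and 536 FPKM (1.29 ± 0.09) and Tubb3 from 151, 169 and 164 FPKM to 323, 353 and 395 FPKM (1.14 ± 0.12). No treated library overlapped the controls in either. Tubb2a rose by 1.72 and Tuba4a by 0.96; the isotypes are similar in sequence, so reads may be shared between them. Of 9 contractile and SRF target genes 5 rose and 2 fell. Smooth muscle actin, Acta2, rose from 5.78, 7.98 and 8.55 FPKM to 16.6, 15.9 and 20.1 FPKM (1.15 ± 0.14), and the actin cross-linker Flna fell by 0.56.

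Most glycolysis genes rose. Of 20 tested glycolysis genes 14 rose and 3 fell (median 0.68). Ldha, the lactate dehydrogenase, went from 262, 299 and 277 FPKM to 551, 568 and 695 FPKM (1.11 ± 0.11), and Tpi1, the triosephosphate isomerase, from 89.6, 102 and 99.5 FPKM to 216, 225 and 266 FPKM (1.27 ± 0.11). Both were apart from the controls in every library. Aldoa rose by 1.13 under the more abundant of its 2 identifiers. The hexokinase Hk2 fell by 0.90, the lactate carrier Slc16a1 by 0.42 and the glucose transporter Slc2a1 by 0.35 (lost in 3 of 16 other settings). Of 18 hypoxia response genes 11 rose and 3 fell (median 0.48), with the kinase Pdk1 (0.73) higher and Ndrg1 (-0.41) lower.

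Protein folding genes moved in both directions. Of 24 endoplasmic reticulum chaperone and unfolded protein response genes 12 rose and 4 fell (median 0.26). The chaperone Hsp90b1 rose from 110, 118 and 109 FPKM to 200, 181 and 200 FPKM (0.78 ± 0.09), while Hspa5 (BiP) fell from 324, 373 and 322 FPKM to 214, 214 and 248 FPKM (-0.59 ± 0.11) and the sensors Atf6 and Ern1 by 1.11 and 0.67. Among heat shock genes (9 of 16 higher, 5 lower) the cytosolic Hspa1b, Hsph1 and Dnaja1 rose by 1.57, 0.69 and 0.72, while the mitochondrial Hspa9, Hspd1 and Hspe1 fell by 1.11, 0.99 and 0.52 (Hspe1 lost in 4 of 16 other settings). The cytosolic chaperone Hspa4 and the heat shock transcription factor Hsf1 also fell, by 0.59 and 0.36. Of 20 NRF2 and glutathione genes 8 rose and 4 fell (7 with protein-coding genes only), Mgst1 by 1.77 upward and the glutamate-cysteine ligase Gclc by 0.74 downward; Hmox1 had 0.21 ± 0.16 (adjusted p = 0.3).

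Few genes were called between the combination and nintedanib alone. For both single treatments the genes tested were those kept by the control and combination libraries. Genes reaching 1 FPKM only with a single treatment were therefore not tested, which can tilt the balance of higher and lower. Of the 12333 genes 422 (3.42%) were higher in the combination and 314 (2.55%) lower, 736 in all. This count rested on the fit and on single libraries more than the others did: it was 93 (72 higher, 21 lower) when only the 6 libraries of both groups were fitted, 280 without the second combination library, 454 without the third, 383 without the second nintedanib library and 471 without the third. The third nintedanib library correlated at 0.971 and 0.977 with the other nintedanib libraries, the lowest values within any group. It also had the highest mitochondrial share (2.12% of fragments) and the lowest sum of FPKM (268411) of all 12 libraries. None of the 21 sterol synthesis genes was called in either direction (median difference -0.13, combination minus nintedanib), nor were any of the 16 proton pump subunits (0.06), and of 40 nucleolar genes 1 was lower. Among the regulators, synthesis genes and transporters of the ATF4 lists 1 was higher, Sesn2 (0.50, adjusted p = 0.047, lost in 9 of 15 other settings), and 2 were lower. A p above the threshold does not show that levels are equal: for Mvd the difference was -0.30 ± 0.23 (SE).

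Mitotic genes were higher than with nintedanib alone. Of the 66 G2/M genes 41 were higher in the combination than with nintedanib and 0 lower (median 0.43); with only the 6 libraries fitted this was 14, and without the second nintedanib library 27. Summed over the list, the level was 2107 to 2201 FPKM in the controls, 1764 to 2155 FPKM with nintedanib, 3386 to 3561 FPKM with radiation and 2825 to 2930 FPKM in the combination. The 3 combination sums lay between those of nintedanib and of radiation without overlap. For 59 of the 66 genes the mean log2 level lay between those of both single treatments, 17 were called both higher than nintedanib and lower than radiation, and 24 were called higher than nintedanib and not called against radiation. Aurka was 1.13 ± 0.10 above nintedanib (adjusted p = 0.00039), Kif20a 1.02 and Ccnb2 0.96. Other genes far above nintedanib were Ccl9 (1.65 ± 0.18), Ifi27l2a (1.40 ± 0.17), the secreted phosphoprotein Spp1 (1.32 ± 0.12) and the keratin Krt13 (1.06 ± 0.12), and all 4 calls held in 15 of 15 other settings.

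Genes lower in the combination than with nintedanib included Snord65 (-2.06 ± 0.31), a small nucleolar RNA at 0, 0.778 and 0.785 FPKM in the combination whose short length leaves few fragments behind a value, and H1f0 (-1.0 ± 0.12). Gas1, a growth arrest protein, was at -0.88 ± 0.12 and the matricellular gene Ctgf at -0.83 ± 0.17. Of 15 tested YAP and TAZ targets 4 were lower than with nintedanib, 0 with only the 6 libraries fitted and 1 without the second combination library. The clock output gene Dbp was at -0.81 ± 0.18, a call lost in 6 of 15 other settings, as was that of Myc (-0.36 ± 0.09, adjusted p = 0.032). The mean level of H1f0 was 458 FPKM with nintedanib, 222 FPKM with radiation and 231 FPKM in the combination, so that the combination lay near radiation.

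Set against radiation alone, the combination differed in sterol, lysosome, amino acid and nucleolar genes. Of the 12333 genes 2244 (18.2%) were higher in the combination and 2219 (18%) lower. Sterol synthesis was higher in 20 of 21 genes (median 1.51), lysosomal hydrolases in 33 of 36 (0.63), fatty acid synthesis in 12 of 15 (0.82) and glycolysis in 15 of 20. The nucleolar list was lower in 35 of 40 (-0.63), amino acid synthesis in 14 of 14, amino acid transport in 9 of 9 and ERK feedback in 10 of 14. The G2/M list was lower in 33 of 66 and higher in 0 (median -0.25), and DNA replication lower in 18 of 46 and higher in 0, with 9 lower without the second combination library and 11 without the first or without the first or the second radiation library. Top2a was at 164 FPKM on average with radiation, 0.62 ± 0.08 above the combination, and Cdk1 did not differ from it beyond the threshold (-0.26, adjusted p = 0.13). The largest differences were those of Psca (2.58), Mvd (2.57), Id2 (2.45), Wisp2 (2.26) and Acat2 (2.23) upward and of Car6, Etv5, Angptl6, Cdsn and Sh2d6 (-3.37, -2.90, -2.82, -2.67 and -2.47) downward.

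**Figure D3:**
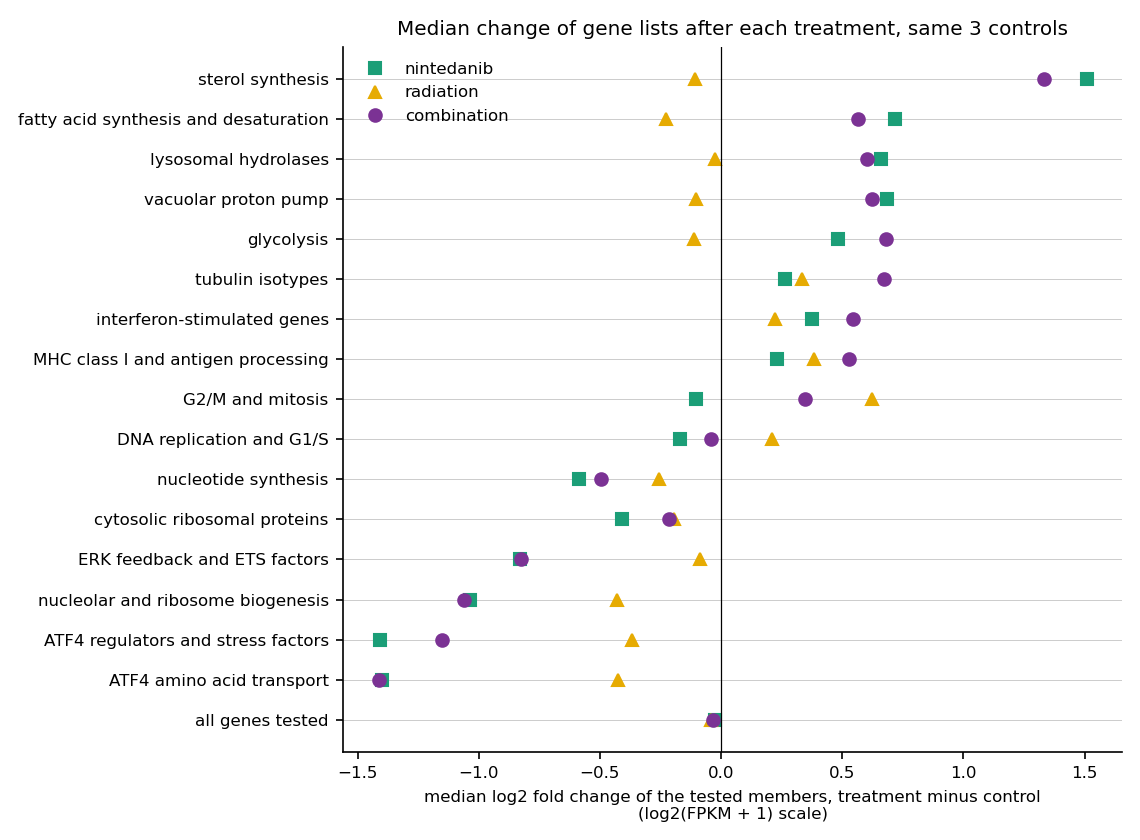
For 16 gene lists and for all genes tested, the horizontal axis is the median log2 difference from the same 3 control libraries after nintedanib (squares), radiation (triangles) and the combination (circles). Sterol, lysosome, ATF4 and ERK lists have the combination beside nintedanib, the G2/M list has it between nintedanib (-0.10) and radiation (0.62), and interferon, MHC class I and tubulin lists have it above both.

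A smaller set of genes was beyond both single treatments. The median differences from the shared controls were 0.38 with nintedanib, 0.22 with radiation and 0.54 with the combination for interferon-stimulated genes, and 0.23, 0.39 and 0.53 for MHC class I genes. Ifi27l2a averaged 15.7 FPKM with nintedanib, 21.4 FPKM with radiation and 43.2 FPKM in the combination, which was above radiation by 0.97 ± 0.17 (adjusted p = 0.0009) as well. H2-K1 averaged 193, 191 and 262 FPKM, with differences of 0.43 ± 0.09 from nintedanib and 0.45 ± 0.09 from radiation; the former call was lost in 4 of 15 other settings. Of the 22 MHC class I genes 5 were higher than with nintedanib, a count that was 0 with only the 6 libraries fitted, 3 without the second or the third nintedanib library and 1 without the second combination library. Against radiation 8 were higher, 5 without the third radiation library, and 2 lower. Of the 32 interferon-stimulated genes 3 were higher than with nintedanib (1 with only the 6 libraries fitted; median difference 0.13) and 9 than with radiation, where the shares over all genes were 3.42% and 18.2%. Tubb2b (0.59 and 1.65), Tubb2a (0.74 and 1.0), Tubb3 (0.82 and 0.43), Havcr2 (0.80 and 1.30), Serpinb8 (0.73 and 1.24), Acta2 (0.91 and 0.91) and Krt13 (1.06 and 0.66) were higher than both. In the tubulin list 4 of 12 tested members were called higher than with nintedanib, a count that was 0 with only the 6 libraries fitted. On the other side Ccnd2 averaged 24.4 FPKM in the controls, 14.6 with nintedanib, 14.9 with radiation and 9.10 in the combination, below both (-0.63 ± 0.07 and -0.65 ± 0.07), and H3f3b was below both as well (-0.39 and -0.37), the first call lost in 7 of 15 other settings.

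**Figure D4:**
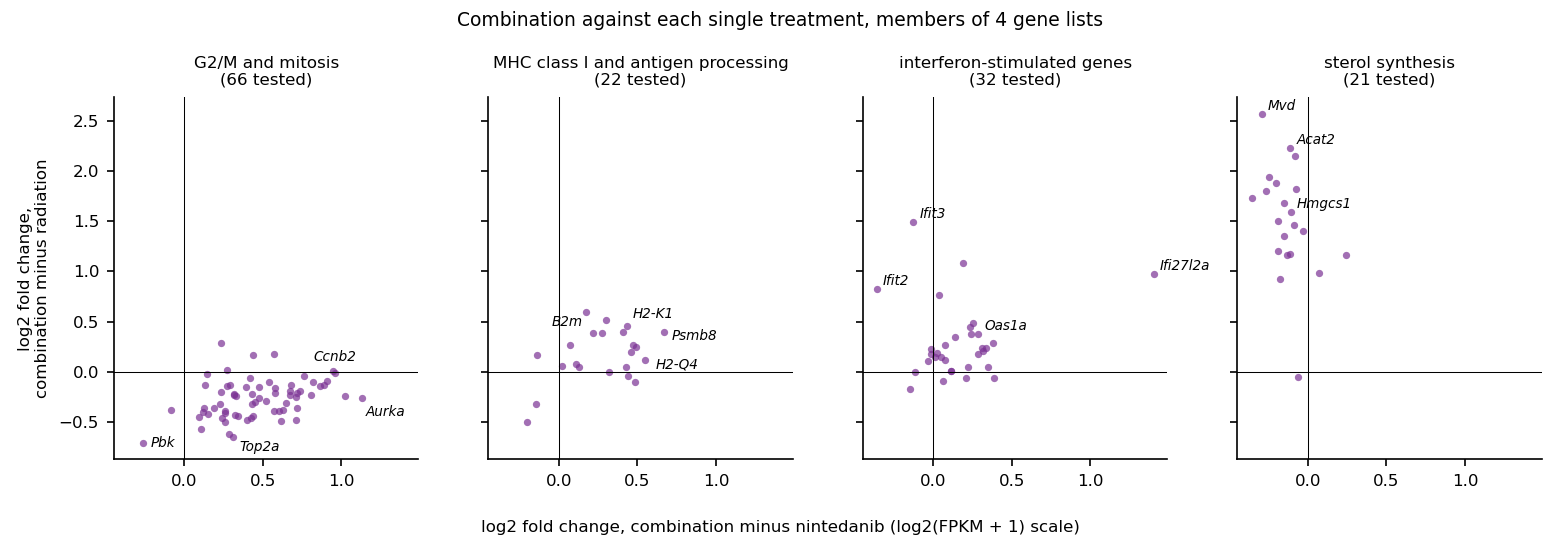
Each point is a tested member of 1 of 4 lists, with the log2 difference of the combination from nintedanib on the horizontal axis and from radiation on the vertical axis; both axes use the same 3 combination libraries. G2/M genes such as Aurka lie to the right and at or below 0, sterol genes such as Mvd lie near 0 horizontally and above 0, and H2-K1, Psmb8 and Ifi27l2a lie above 0 on both axes.

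Spp1 (osteopontin; chromosome 5, 104435118 to 104441050) had opposite differences in the single treatments. It was at 122, 133 and 125 FPKM in the controls and at 94.8, 100 and 95.2 FPKM in the combination, with averages of 38.6 FPKM with nintedanib and 179 FPKM with radiation. The combination was thus below the controls (-0.39 ± 0.12, adjusted p = 0.019, lost in 4 of 16 other settings), above nintedanib (1.32) and below radiation (-0.87).

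Marker genes of other cell types moved at low levels. The epithelial genes Cdh1 and Krt19, the only 2 of 13 in their list high enough to be tested, rose by 0.76 ± 0.08 and 1.30 ± 0.21, and the summed level of the list was 5.04 to 5.88 FPKM in the controls and 11.6 to 13.7 FPKM in the combination. Of 10 mesenchymal markers the factor Snai2 fell (-0.67 ± 0.11) and 0 rose. Their sum was 825 to 915 FPKM in the controls and 798 to 953 FPKM in the combination. Hba-a1, an alpha globin gene, was at 0, 0.142 and 0 FPKM in the controls and at 2.33, 1.45 and 2.65 FPKM in the combination (1.57 ± 0.16), while the endothelial marker Pecam1 reached at most 0.36 FPKM. The limit for testing was met by Hba-a1 through its combination libraries alone. The same may hold for Krt19, a low gene whose difference ran from 1.11 to 2.14 over the other settings. What part cells of other types have in these values was not tested.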

How the data were processed

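RNA sequencing libraries of MC38 cultures in 4 groups of 3 were made with a SMARTER mRNA kit, per the labels' protocols. The authors deposited 1 table of FPKM per gene with identifiers, coordinates and lengths, per the file headers, and the submitters' processing notes name GRCm38 (mm10). Aligner, counter, strandedness and any scaling step: not given in the sources used here. FPKM times length gave whole fragments for 100% of values (tolerance 0.01 of a step), and these imply a scaling depth of 0.970 to 0.982 times the total in control and 1.01 to 1.03 times in combination libraries. Without molecular identifiers, fragments of 1 molecule can be counted repeatedly. Replicates differed by more than sampling noise (chi-square per gene 4.30 to 30.2).

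Values were transformed to log2 with a pseudocount of 1 and fitted with limma 3.58.1 in R 4.3.3 (lmFit, eBayes with trend) to 4 group means over all 12 libraries (8 residual degrees of freedom), adjusting p over the 12333 genes, threshold 0.05. The comparisons share libraries. p-values measure the spread between these cultures. The fit was tested on simulated data.

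Some members of the lists are not reported here by name. The members and the 56 gene lists (1218 genes, 1214 in the table) were chosen with earlier results of these data known. Named were the 12 largest rises and falls against control (called, no overlap between groups, a mean of 5 FPKM or more where higher, no predicted symbols), the 5 smallest adjusted p per list and direction, the 5 largest differences from either single treatment, markers and a fixed set of reference genes. Of 2 identifiers with 1 symbol the more abundant was used. Alternatives were pseudocount, filters, scalings, voom, protein-coding genes only, only the 6 libraries compared, a replicate block, and each library left out.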

Additional observations from a re-analysis of the deposited data

How the results depend on the processing

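For the combination against control, the count of 6101 called genes was 4626 with an FPKM minimum of 5 and 6873 with no minimum, and stayed within 1.5 times in every setting run; without 1 library it was 5201 to 6382. The count at 2-fold or more, 665, was 1111 with a pseudocount of 0.1 and 1181 with voom, and 649 to 711 without 1 library. The share of these 2-fold genes that were higher was 64.8% with voom and 51% in the reported fit. The count against nintedanib, 736, was 93 with only the 6 libraries of both groups (90 of them among the 736), and 280 to 675 without 1 library, with 454 and 280 without combination replicates 3 and 2, and 471 and 383 without nintedanib replicates 3 and 2. The cause was not tested. With only the 6 libraries of both groups, the count was 6008 against control and 4265 against radiation, where the reported fit had 4463. Without 1 library the count against radiation was 3562 to 4240. With the replicate number as a block, the counts were 5736 against control, 663 at 2-fold, 483 against nintedanib and 4062 against radiation. Over all pairs of groups, deviations of same-numbered libraries correlated at -0.341 to 0.252 and of differently numbered ones at -0.304 to 0.334. Between control and combination these ranges were -0.0671 to 0.252 and -0.304 to 0.138. The deviations are from means of only 3 libraries, so these values cannot settle whether the numbers pair the libraries. Of 418 named genes tested, 365 stayed on the same side of the threshold, called or not, in all settings against control, 330 against nintedanib and 337 against radiation, and 0 changed sign with a call. With an FPKM minimum of 5, where fewer genes are tested, 3 nucleic acid sensors, 3 chemokine genes and 2 lipid droplet genes rose. Depth limits genes near 1 FPKM, where 1 kb of gene model holds 16.6 to 18 fragments.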

Other observations

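Clock genes moved in opposite directions. Of 15 tested members 3 rose (1 without the second control or the second combination library) and 8 fell (median log2 difference -0.38, combination minus control). Arntl (BMAL1), an activator of the clock, was at 7.34, 8.4 and 8.03 FPKM in the controls and at 3.16, 3.38 and 2.64 FPKM in the combination (-1.14 ± 0.09, adjusted p = 2.2e-06). The repressors Ciart, Nfil3 and Nr1d1 fell by 1.29, 0.91 and 0.72, while Bhlhe40 rose by 0.71 and Per3 by 0.44 (lost in 2 of 16 other settings). The labels give no hour of harvest.

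Notch and Wnt targets were mostly lower, with 5 of 9 tested members falling and 1 rising. Jag1, a Notch ligand, went from 7.79, 6.26 and 6.86 FPKM to 3.62, 3.4 and 2.77 FPKM (-0.90 ± 0.11), and the factor Tcf7 from 21.3, 23.8 and 24.1 FPKM to 36, 36 and 42 FPKM (0.69 ± 0.08). Of 16 FoxO and insulin signalling genes 6 rose and 5 fell (3 without the third control or the third combination library): Ccng2 rose by 0.83, and Txnip had -1.0 ± 0.32 with the widest spread of them (12.6, 16 and 5.61 FPKM in the combination), a call lost in 3 of 16 other settings. Of 14 ferroptosis and iron genes 5 rose and 3 fell, with the ferritin gene Ftl1 at 0.81 ± 0.17 and the peroxidase Gpx4 at 0.09 ± 0.10 (adjusted p = 0.48). For the FoxO and iron lists, the shares over all genes were 23.2% higher and 26.3% lower. Of 12 mitochondrially encoded genes 2 rose, mt-Nd1 and mt-Nd2 (0.38 and 0.52), and both calls were lost in 7 and 6 of 16 other settings.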
